A study of Mus musculus with 6 samples.

Results

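Integrin chains, lymphoid tissue exit receptors and one selectin ligand were followed across genotypes of splenic CD4 T cells, as 10 genes among the 28914 of the expression table. They were chosen by symbol: the integrin chains Itgae, Itgb7, Itga4, Itgb1, Itgal and Itgb2, the sphingosine 1-phosphate receptors S1pr1 and S1pr4, the oxysterol receptor Gpr183, and Selplg, which encodes the selectin ligand PSGL-1. All 10 were found by Ensembl identifier in GENCODE M21 on GRCm38. RNA was sequenced from CD4 T cells that had been sorted as a whole from the spleen and not stimulated through their receptor afterwards. The mice were of the NOD strain, in which autoimmune diabetes arises spontaneously, and 12 weeks old. The 3 groups were WT (the control genotype), CKO (labelled as a knockout of Blimp1, the gene Prdm1) and BTg (labelled as overexpressing Blimp-1), each with 2 libraries. The sources used here name neither a Cre line nor the promoter behind the transgene. They also leave unsaid whether each library is a different mouse, and the spread behind every p-value is that between libraries, which may be technical.

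Integrins are pairs of an alpha and a beta chain that hold lymphocytes to vessel walls, matrix and other cells. Alpha4beta7 binds the gut addressin MAdCAM-1, alpha4beta1 (VLA-4) binds VCAM-1 and fibronectin, alphaEbeta7 (CD103) binds E-cadherin on epithelium, and alphaLbeta2 (LFA-1) binds ICAM-1. Naive and central memory T cells leave lymphoid tissue along a gradient of sphingosine 1-phosphate through S1PR1, whose gene is a target of the transcription factor KLF2, and GPR183 (EBI2) places activated T cells at the edge of the B cell follicle. PSGL-1 carries the sugar structures that selectins bind. Blimp-1 is a zinc finger repressor of transcription, best known in plasma cells and in effector and tissue-resident T cells.

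Library depth, recovered from the table, was 14958458 to 17799091 reads. Pairs of values below give replicate 1 before replicate 2. Prdm1 was at 0.458 and 0.628 FPKM (fragments scaled to gene length and library size) in WT, 0.849 and 0.669 in CKO and 19.6 and 30.1 in BTg. Its level was higher in both BTg libraries than in the other four, with a log2 difference from WT of 4.04 (SE 0.26, limma adjusted p = 0.0221). Its limma adjusted p was 0.105 with quantile normalization, 0.13 with a replicate block, 0.132 with only WT and BTg in the fit, and 0.149 to 0.546 without a WT or CKO library, at differences of 3.96 to 4.12; without a BTg library it fell under the filter. The gene level does not check the deletion in CKO. All 12 CD4 T cell markers were detected in every library. Of the CD8 T and NK cell list Cd8a was at 0.03 to 0.13 FPKM, Cd8b1 at 0.168 to 0.814, Prf1 at 1.86 to 10.1 and Nkg7 at 8.63 to 133, and the list summed to 139 in CKO replicate 1 against 23.2 to 40.4 elsewhere. The library of CKO replicate 1 was far from the rest, at 69.9 on a principal component that carried 56.5% of the variance, where the others lay between -35.1 and -1.2. All 12 neutrophil markers were highest there, with a summed level of 8160 FPKM against 41.3 to 198 elsewhere, and all 12 CD4 T cell markers were lowest there, at 1040 FPKM in sum against 1370 to 2100. The neutrophil gene S100a8 was at 3610 FPKM there against 1.41 to 43.8 elsewhere, and Cd4 at 53.8 against 81.7 to 103. Plasma cell markers summed to 960 FPKM there against 93.0 to 253, and monocyte and macrophage markers to 241 against 11.2 to 40.0. Erythroid markers differed otherwise, with 85.5 and 1060 FPKM in WT, 382 and 651 in CKO, and 99.4 and 166 in BTg. Each value for CKO below is therefore given for both libraries. In bulk RNA, fewer cells of a type and less RNA per cell cannot be told apart.

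**Figure D1:**
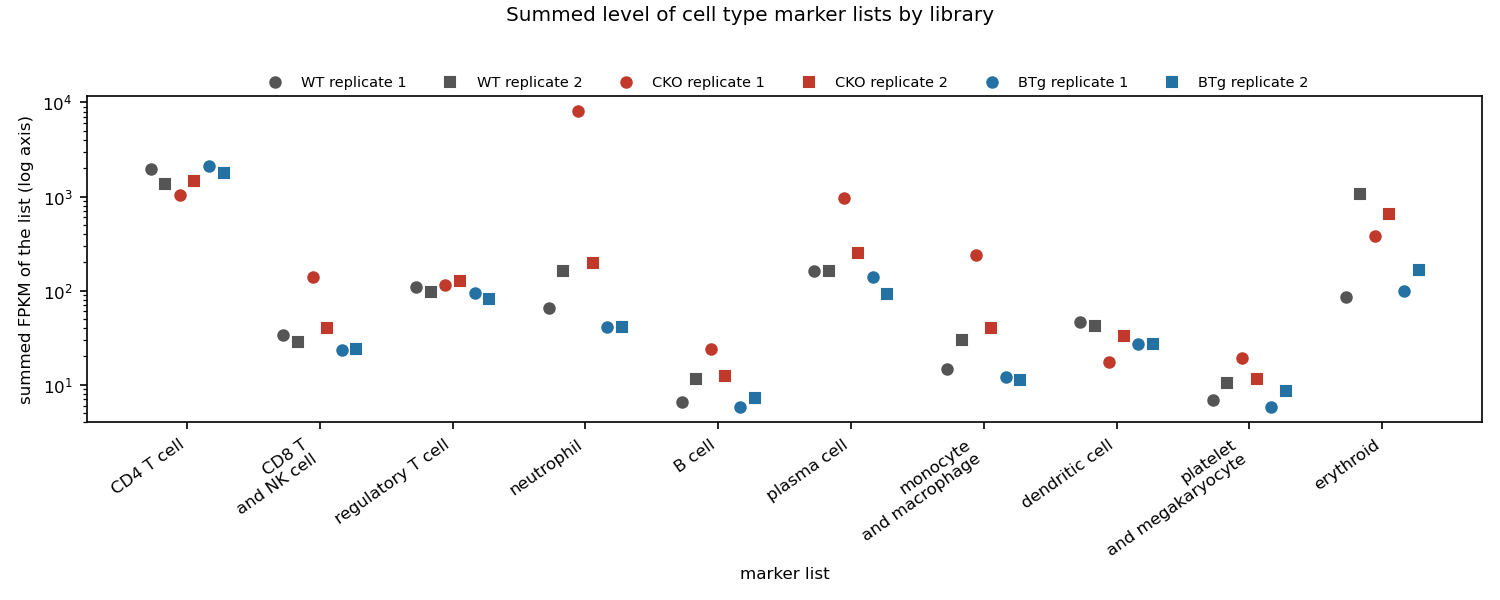
Summed FPKM of each cell type marker list (vertical axis, logarithmic) in each of the 6 libraries, by list along the horizontal axis. CKO replicate 1 has the lowest CD4 T cell sum, 1040, and the highest neutrophil sum, 8160.

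The deposited FPKM divide reads by the genomic span of a gene's transcripts with introns, which is the same in every library and cancels when 1 gene is compared between groups. Levels of different genes are compared below on exon-length FPKM, computed from the recovered reads and the merged exon length. This length merges the exons of all annotated transcripts of a gene, so ranks and absolute ratios between genes depend on it. It was 13978 bases for Itga4, 4081 for Itgb1 and 2770 for Itgb7. On that scale Itgb7 was the most abundant of the 10 in each group, at 285 ± 39.5 in WT, 251 ± 89.5 in CKO and 361 ± 14.0 in BTg (SD, n = 2), and Itgae the least, at 2.42 ± 0.72, 7.80 ± 2.01 and 1.40 ± 0.397. In WT the order after Itgb7 was Itgb2 (158 ± 5.89), S1pr1 (156 ± 18.0), Selplg (114 ± 16.7), Itgb1 (107 ± 6.06), S1pr4 (101 ± 4.28), Itgal (86.4 ± 7.65), Itga4 (40.3 ± 7.79), Gpr183 (16.7 ± 2.66) and Itgae. Itgb2 and S1pr1 did not differ beyond their spread, nor did Selplg, Itgb1 and S1pr4. Itgb1 was at rank 5 in WT, rank 2 in CKO and rank 7 in BTg, and S1pr1 at rank 3 in WT, rank 6 in CKO and rank 3 in BTg.

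**Figure D2:**
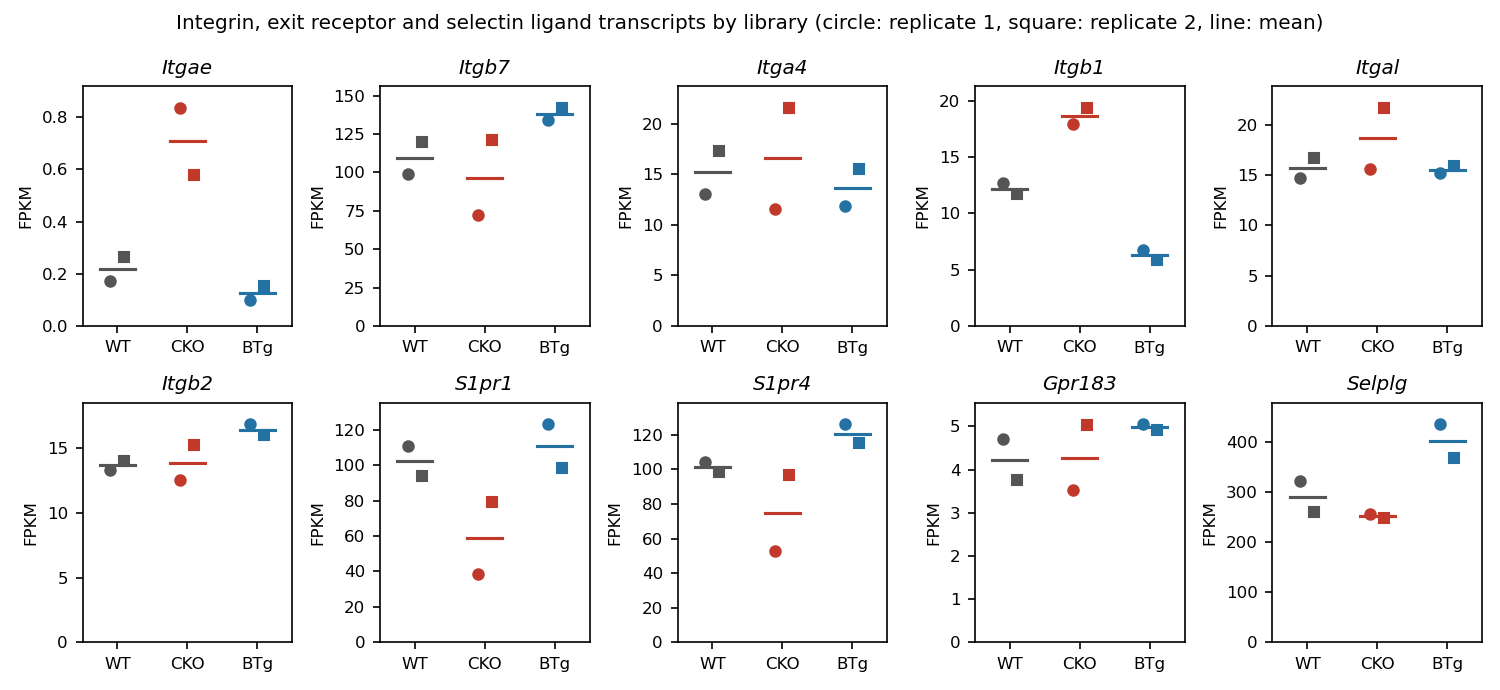
Deposited FPKM (vertical axis, starting at 0 in each panel) of the 10 genes in each library of WT, CKO and BTg; points are libraries and lines are group means. Itgae and Itgb1 run from lowest in BTg to highest in CKO, and in S1pr1, S1pr4 and Itgb7 the lowest point is CKO replicate 1.

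Differences between groups were tested with limma on log2(FPKM + 1) over the 10798 genes that reached 1 FPKM in 2 or more libraries. Of the 10 genes 9 passed this filter. Itgae lay under it and was tested in the same model on exon-length FPKM over 13488 genes. With this test none of the 10 passed an adjusted p of 0.05 in any comparison, nor in a joint test of any difference among the 3 groups. With limma voom on the recovered reads none passed either, where 0.0%, 0.0251% and 0.044% of genes did for CKO against WT, BTg against WT and BTg against CKO. Few genes of the table did in the first test: 0.0% for CKO against WT, 0.0185% for BTg against WT, 0.0185% for BTg against CKO and 0.0185% for any difference, and on exon length 0.0%, 0.0148% and 0.0667%. At an unadjusted p under 0.05, Itgb1 passed in each comparison, where 4.2%, 1.62% and 8.79% of all genes did, and in the joint test, where 5.23% did. On exon length Itgae passed for CKO against WT, where 4.86% of genes did, Itgb1 for BTg against WT, where 1.61% did, and Itgae, Itgb1 and S1pr1 for BTg against CKO, where 10.7% did. The statements below therefore describe libraries and intervals, and no member is called changed.

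**Figure D3:**
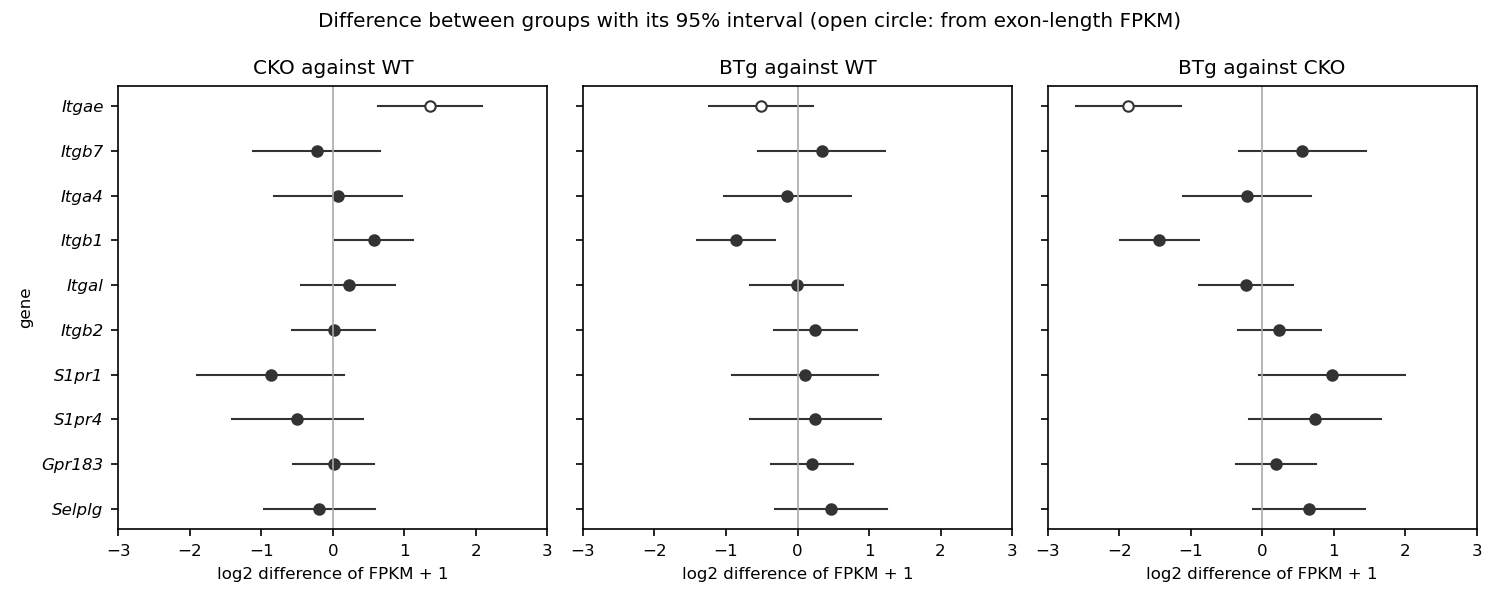
Difference between groups on the log2(FPKM + 1) scale (horizontal axis) with its 95% interval from limma, for each of the 10 genes (vertical axis) in 3 comparisons; the open circle marks Itgae, taken from exon-length FPKM. The intervals of Itgae and Itgb1 lie wholly below 0 in BTg against CKO, at -1.87 and -1.44.

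The order of whole groups is described next without a test, on the same 6 libraries, so it is not independent of the fit. The members were chosen with earlier results of these data known, which limits a comparison with shares over all genes. In 2 of the 10 genes, Itgae and Itgb1, both BTg libraries lay below both WT libraries and these below both CKO libraries, an order shown by 3.48% of the 13488 genes. The reverse order, CKO below WT below BTg, was shown by S1pr4 and Selplg and by 2.31% of genes. For CKO against WT, Itgae and Itgb1 were higher without overlap, against 13.1% of genes, and S1pr1, S1pr4 and Selplg lower, against 9.41%. For BTg against WT, Itgb7, Itgb2, S1pr4, Gpr183 and Selplg were higher without overlap, against 14.5% of genes, and Itgae and Itgb1 lower, against 11.5%. For BTg against CKO, Itgb7, Itgb2, S1pr1, S1pr4 and Selplg were higher, against 17.5%, and Itgae and Itgb1 lower, against 24.2%. These comparisons share libraries. Scaling each library to its CD4 T cell markers, chosen after seeing the data, left the places of Itgae and Itgb1 in all 3 comparisons and moved most others. CKO then exceeded WT without overlap in 6 genes, Itga4, Itgal, Itgb2 and Gpr183 having joined, and was lower in S1pr1 alone. BTg then exceeded WT only in Selplg, exceeded CKO in S1pr1 and S1pr4, and lay below CKO in the same 6 genes.

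Itgae (ENSMUSG00000005947, chromosome 11, 73090583 to 73147446, plus strand) encodes the alphaE chain of CD103, a marker of T cells in epithelia and of some regulatory T cells and dendritic cells. It had 156 and 205 reads in the WT libraries, 752 and 518 in CKO, and 78 and 115 in BTg. As deposited FPKM these are 0.174 and 0.266 in WT, 0.836 and 0.578 in CKO, and 0.101 and 0.152 in BTg. No CKO library overlapped WT, and no BTg library did. The mean was 3.22-fold higher in CKO than in WT, 1.73-fold higher in WT than in BTg, and 5.58-fold higher in CKO than in BTg. On the log2(exon-length FPKM + 1) scale the difference of CKO from WT was 1.36 (SE 0.31, 95% interval 0.63 to 2.09, limma adjusted p = 0.724), and that of BTg from CKO was -1.87 (SE 0.31, -2.60 to -1.13, limma adjusted p = 0.127). BTg against WT gave -0.51 with an interval that spans 0, from -1.24 to 0.22.

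Without CKO replicate 1 the Itgae differences were 1.12 for CKO against WT and -1.63 for BTg against CKO, so they did not rest on that library alone. Without CKO replicate 2 the latter was -2.10 (limma adjusted p = 0.0371), a call made under this one setting, where 673 of 13092 genes passed. Haspin, a mitotic kinase gene, lies within Itgae on the opposite strand, and whether reads were counted by strand is not known here. Haspin had 123 and 228 reads in WT, 329 and 323 in CKO and 125 and 164 in BTg, so it too was highest in CKO, and its part in the Itgae counts was not tested. Regulatory T cell markers, a population that can carry CD103, summed to 110 and 95.9 FPKM in WT, 114 and 128 in CKO and 93.2 and 80.8 in BTg. Foxp3, their lineage factor, was at 5.07 and 5.99 FPKM in WT, 6.02 and 8.88 in CKO, and 3.27 and 3.80 in BTg. Of 11 tested genes in the regulatory T cell list, 8 were higher and 3 lower in CKO than in WT. The lower ones were Il2ra (log2 difference -0.28), Gpr83 (-0.21) and Tnfrsf18 (-0.12). For BTg against WT 2 were higher and 9 lower. Dendritic cell markers summed to 46.2 and 41.7 in WT, 17.3 and 32.7 in CKO, and 27.0 and 27.2 in BTg. Most of the dendritic cell sum was Ccr7, which T cells also express; the other 9 genes summed to 2.32 and 6.46 in WT, 6.82 and 6.54 in CKO, and 1.98 and 2.69 in BTg. Neutrophil markers summed to 64.9 and 163 in WT, 8160 and 198 in CKO, and 41.4 and 41.3 in BTg. Plasma cell markers summed to 162 and 163, 960 and 253, and 140 and 93.0 in the same order, and monocyte and macrophage markers to 14.5 and 30.0, 241 and 40.0, and 12.1 and 11.2. CD8 T and NK cell markers summed to 33.5 and 28.2 in WT, 139 and 40.4 in CKO, and 23.2 and 24.2 in BTg. Of 4 tested genes in that list, 2 were higher and 2 lower in CKO than in WT. The regulatory T cell, neutrophil, plasma cell, monocyte, and CD8 T and NK cell sums all had the order of groups of Itgae without overlap. The part of these lists in the Itgae result was not tested.

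Itgb7 (ENSMUSG00000001281, chromosome 15, 102215995 to 102231944, minus strand) encodes the beta7 chain shared by CD103 and the gut homing integrin. It was at 98.7 and 120 FPKM in WT, 72.0 and 121 in CKO, and 134 and 142 in BTg. BTg was the high group, above every other library, and the CKO libraries lay on both sides of WT. The differences on the log2(FPKM + 1) scale were 0.34 for BTg against WT (95% interval -0.55 to 1.23) and 0.56 for BTg against CKO (-0.32 to 1.45, limma adjusted p = 0.693), the latter 0.01 when scaled to CD4 T cell markers. CKO against WT was -0.22 (-1.11 to 0.66) and 0.15 without CKO replicate 1.

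Itgb1 (ENSMUSG00000025809, chromosome 8, 128685654 to 128733200, plus strand) encodes the beta1 chain of VLA-4 and of the collagen, laminin and fibronectin receptors, and its protein is raised on memory T cells. It was at 12.7 and 11.7 FPKM in WT, 18.0 and 19.4 in CKO, and 6.72 and 5.85 in BTg. The groups were far apart for their spread, with means of 12.2 ± 0.69, 18.7 ± 0.998 and 6.29 ± 0.618 (SD, n = 2). The mean was 1.53-fold higher in CKO than in WT, 1.95-fold higher in WT than in BTg, and 2.98-fold higher in CKO than in BTg. The log2 differences were 0.58 (SE 0.22, 0.03 to 1.12) for CKO against WT, -0.86 (SE 0.22, -1.41 to -0.31) for BTg against WT and -1.44 (SE 0.22, -1.99 to -0.89) for BTg against CKO, with limma adjusted p of 1.0, 1.0 and 0.209. Without CKO replicate 1 the CKO against WT difference was 0.63. The regulatory T cell, neutrophil, plasma cell, monocyte, and CD8 T and NK cell sums given for Itgae had the order of groups of Itgb1 too. This held with CKO replicate 2 included, and the part of these sums in the Itgb1 result was not tested. Over 19 settings the BTg against CKO difference ran from -1.95 to -1.35, with limma adjusted p between 0.0647 and 1.0. It passed the threshold in one combined setting, exon length without CKO replicate 2, as Itgae did.

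On deposited FPKM the beta7 and beta1 transcripts thus stood in opposite order of BTg and WT. For Itgb7 the interval spanned 0, and its WT and BTg libraries overlapped when scaled to CD4 T cell markers. The promoters of Itgb7 and Itgb1 are shown for comparison. RefSeq (GRCm38.p6) windows of the 250 bases before the start were matched for 5 of the 10 genes, namely Itgb7, Itga4, Itgb1, S1pr4 and Gpr183. Capitals mark the KLF box CACCC or its reverse complement. The window of Itgb7 is chr15:102231936-102232185 on the minus strand, with 56.0% G and C, and that of Itgb1 is chr8:128685404-128685653 on the plus strand, with 68.0%.
Itgb7 promoter: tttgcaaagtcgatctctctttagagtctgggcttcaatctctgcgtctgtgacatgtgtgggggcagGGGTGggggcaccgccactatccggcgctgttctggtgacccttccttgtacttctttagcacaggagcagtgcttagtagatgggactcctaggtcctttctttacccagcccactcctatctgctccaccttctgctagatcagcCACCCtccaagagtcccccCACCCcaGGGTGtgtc
Itgb1 promoter: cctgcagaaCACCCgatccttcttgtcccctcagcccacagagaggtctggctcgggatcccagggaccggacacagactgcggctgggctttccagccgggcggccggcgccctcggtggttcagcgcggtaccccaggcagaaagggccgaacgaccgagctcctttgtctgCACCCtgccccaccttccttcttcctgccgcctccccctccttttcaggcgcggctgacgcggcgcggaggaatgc
The Itgb7 window held 4 such boxes and the Itgb1 window 2, while Itga4 had 4, S1pr4 had 1 and Gpr183 had 0. A box was found in 52.0% of the 32851 RefSeq windows of this length. The core of the Blimp-1 motif, searched as GNGAAAG on both strands, was in 0 of the 5 windows and in 19.4% of all windows. These are letter matches in a short window and show neither binding nor its absence.

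Itga4 (ENSMUSG00000027009, chromosome 2, 79255426 to 79333123, plus strand) encodes the alpha4 chain, which pairs with either beta7 or beta1. It was at 13.1 and 17.3 FPKM in WT, 11.6 and 21.6 in CKO, and 11.9 and 15.5 in BTg. The groups overlapped in all 3 comparisons, and the CKO libraries were the farthest apart. The log2 differences were 0.07 (95% interval -0.82 to 0.96), -0.14 (-1.03 to 0.75) and -0.21 (-1.10 to 0.68), in the order CKO against WT, BTg against WT and BTg against CKO. The interval of BTg against WT also holds the -0.86 of Itgb1. Cerkl overlaps Itga4 on the opposite strand, and its 35 to 55 reads per library are few beside the 6698 to 14162 of Itga4.

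LFA-1 showed small differences. Itgal (ENSMUSG00000030830, chromosome 7, 127296260 to 127335138, plus strand), the alphaL chain, was at 14.7 and 16.7 FPKM in WT, 15.6 and 21.7 in CKO, and 15.2 and 15.9 in BTg. Itgb2 (ENSMUSG00000000290, chromosome 10, 77530252 to 77565708, plus strand), the beta2 chain of all leukocyte integrins, was at 13.3 and 14.0 in WT, 12.5 and 15.2 in CKO, and 16.8 and 16.0 in BTg. Both BTg libraries were above the other four for Itgb2, whereas Itgal overlapped throughout. The largest of the 6 log2 differences was 0.25, for Itgb2 in BTg against WT (95% interval -0.33 to 0.83). CKO against WT was 0.22 for Itgal (-0.44 to 0.87) and 0.01 for Itgb2 (-0.57 to 0.59).

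Because a chain is displayed only with its partner, the ratio of partner transcripts was taken within each library on exon-length FPKM; library scaling cancels in it, and no test was made. Itgae to Itgb7 was 0.00744 and 0.00936 in WT, 0.0491 and 0.0203 in CKO, and 0.00318 and 0.00453 in BTg. Its mean log2 value differed by 1.92 between CKO and WT and by -1.14 between BTg and WT, with no overlap, and Itgb7 was far in excess of Itgae in every library. Itga4 to Itgb7 was 0.135 and 0.146 in WT, 0.164 and 0.182 in CKO, and 0.0896 and 0.111 in BTg, so the ratio separated the 3 groups although Itga4 alone did not. Itgal to Itgb2 was 0.527 and 0.567 in WT, 0.592 and 0.682 in CKO, and 0.431 and 0.473 in BTg, again without overlap and with the same order. Itga4 to Itgb1 had BTg highest, at 0.532 and 0.801, against 0.311 and 0.444 in WT and 0.194 and 0.335 in CKO, where WT and CKO overlapped. The ratio of the competing beta chains, Itgb1 to Itgb7, was 0.434 and 0.329 in WT, 0.842 and 0.542 in CKO, and 0.168 and 0.139 in BTg. Relative to beta7, beta1 transcript was therefore highest in CKO and lowest in BTg, by -2.14 in log2 between BTg and CKO. The ratios share genes and are not independent of each other or of the single genes. How often ratios of other gene pairs have such an order was not computed, so it is not shown to be particular to these chains. A difference in cell types between libraries does not cancel in a ratio, and its part was not tested.

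**Figure D4:**
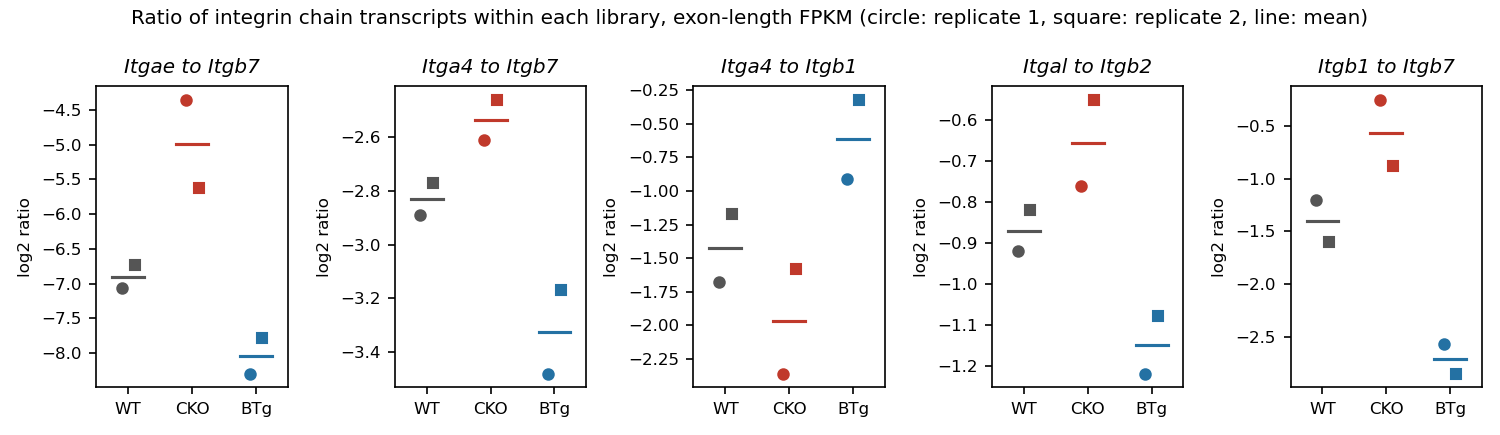
Log2 ratio of exon-length FPKM of integrin chains (vertical axis) in each library by group; points are libraries and lines are group means. The order BTg, WT, CKO from low to high holds without overlap for Itgae to Itgb7, Itga4 to Itgb7, Itgal to Itgb2 and Itgb1 to Itgb7, and Itga4 to Itgb1 is highest in BTg. How often other gene pairs have this order was not computed.

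Among the exit receptors, S1pr1 (ENSMUSG00000045092, chromosome 3, 115710433 to 115715072, minus strand) was at 111 and 94.1 FPKM in WT, 38.6 and 79.2 in CKO, and 123 and 98.2 in BTg. Both CKO libraries were below the other four, and they differed from each other more than the libraries of any other group. The mean was 1.74-fold higher in WT than in CKO. The log2 difference was -0.87 for CKO against WT (SE 0.42, 95% interval -1.90 to 0.15, limma adjusted p = 1.0), 0.11 for BTg against WT (-0.92 to 1.13) and 0.98 for BTg against CKO (SE 0.42, -0.05 to 2.0, limma adjusted p = 0.586). Without CKO replicate 1 the CKO against WT value was -0.36 and the BTg against CKO value 0.47. Scaled to CD4 T cell markers, S1pr1 was at 96.5 and 99.1 in WT, 60.6 and 77.6 in CKO, and 99.6 and 85.9 in BTg, so CKO stayed below without overlap at a smaller difference of -0.51.

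S1pr4 (ENSMUSG00000044199, chromosome 10, 81497747 to 81500132, minus strand), a lymphoid receptor for the same lipid, was at 104 and 98.4 FPKM in WT, 52.9 and 96.9 in CKO, and 126 and 115 in BTg. CKO replicate 1 was the low library here as well, while CKO replicate 2 lay just below WT. The log2 differences were -0.50 for CKO against WT (95% interval -1.41 to 0.42), 0.25 for BTg against WT (-0.67 to 1.17) and 0.74 for BTg against CKO (-0.18 to 1.66, limma adjusted p = 0.627). The CKO against WT value was -0.06 without CKO replicate 1. S1pr2, which inhibits migration and holds cells in germinal centres, was at 1.22 and 1.16 FPKM in WT, 3.41 and 2.72 in CKO, and 1.51 and 1.19 in BTg. Unlike S1pr1 and S1pr4 it was higher in CKO, by 0.89 from WT (SE 0.21, limma adjusted p = 0.876).

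Klf2, the transcription factor that drives S1pr1 in resting T cells, was at 128 and 110 FPKM in WT, 51.8 and 113 in CKO, and 174 and 115 in BTg. It was low in CKO replicate 1 alone. Cd69, whose protein removes S1PR1 from the cell surface, was at 16.0 and 9.61 in WT, 7.92 and 10.9 in CKO, and 18.7 and 13.1 in BTg, with overlap between WT and both other groups. In the list of the sphingosine phosphate pathway and egress, limma called 0 of 21 genes tested in any comparison. At an unadjusted p under 0.05, S1pr2 alone passed for CKO against WT, where 3.11% of all genes were higher. For BTg against WT 0 passed. For BTg against CKO 2 were higher and 1 lower, beside 2.78% and 6.01% of all genes. For BTg against WT 16 were higher and 5 lower, with a median log2 difference of 0.24 beside 0.02 for all genes, and for CKO against WT 10 were higher and 11 lower, with a median of -0.01 beside -0.03. Ezr, which encodes ezrin, a link between membrane proteins and actin, was at 14.8 and 16.3 FPKM in WT, 9.82 and 15.3 in CKO, and 22.5 and 21.0 in BTg.

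Gpr183 (ENSMUSG00000051212, chromosome 14, 121952551 to 121965195, minus strand) was at 4.70 and 3.75 FPKM in WT, 3.53 and 5.03 in CKO, and 5.05 and 4.92 in BTg. The BTg libraries lay just above WT, and CKO spanned the WT range. The log2 differences were 0.01 (95% interval -0.56 to 0.58), 0.20 (-0.37 to 0.77) and 0.19 (-0.37 to 0.76), again in the order CKO against WT, BTg against WT and BTg against CKO. It lies within Ubac2 on the opposite strand, which had 1089 to 1886 reads per library against 651 to 1016 for Gpr183, so the 2 cannot be fully told apart without the strand. Of 5 tested genes for oxysterol synthesis and sensing limma called 0. Only Gpr34, higher in BTg than in CKO, had an unadjusted p under 0.05, beside 2.78% of all genes. Gpr34, a receptor for lysophosphatidylserine placed in this list, was at 1.76 and 0.669 FPKM in WT, 0.580 and 0.957 in CKO, and 3.03 and 1.99 in BTg.

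Selplg (ENSMUSG00000048163, chromosome 5, 113818536 to 113832644, minus strand) was at 321 and 260 FPKM in WT, 257 and 249 in CKO, and 435 and 367 in BTg. Both BTg libraries were above the other four, and both CKO libraries lay just below WT. The log2 differences were -0.19 for CKO against WT (95% interval -0.97 to 0.59), 0.47 for BTg against WT (-0.32 to 1.25) and 0.66 for BTg against CKO (-0.13 to 1.44, limma adjusted p = 0.611). Scaled to CD4 T cell markers the first of these turned to 0.18.

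Genes for the synthesis of selectin ligands, not all of them particular to PSGL-1, were of mixed order. Fut7, the fucosyltransferase that completes the selectin-binding sugar, was at 1.22 and 1.61 FPKM in WT, 5.07 and 3.11 in CKO, and 1.08 and 0.873 in BTg, with a CKO against WT difference of 1.05 (SE 0.26, limma adjusted p = 0.911). Chst2, a sulfotransferase for such sugars, was at 0.999 and 1.06 in WT, 1.79 and 2.50 in CKO, and 0.865 and 0.774 in BTg. Both were highest in CKO and lowest in BTg, without overlap, as Itgae and Itgb1 were. The regulatory T cell, neutrophil, plasma cell, monocyte, and CD8 T and NK cell sums had this order too, and their part was not tested. Slc35c1, the transporter that brings the fucose donor into the Golgi, was at 11.8 and 15.0 in WT, 12.7 and 14.3 in CKO, and 15.6 and 18.4 in BTg, with BTg highest as for Selplg. Tpst2, a tyrosine sulfotransferase, was at 5.51 and 5.47, 4.65 and 6.19, and 7.24 and 6.24 in the same order, again highest in BTg. Of 14 tested genes for selectins and their ligands 0 were called, with 6 higher and 8 lower in CKO than in WT and 7 each way in the other comparisons. At an unadjusted p under 0.05, 3 were higher and 1 lower in CKO than in WT, beside 3.11% and 1.09% of all genes. For BTg against WT 1 was lower, beside 0.852%, and for BTg against CKO 4 were lower, beside 6.01%.

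**Figure D5:**
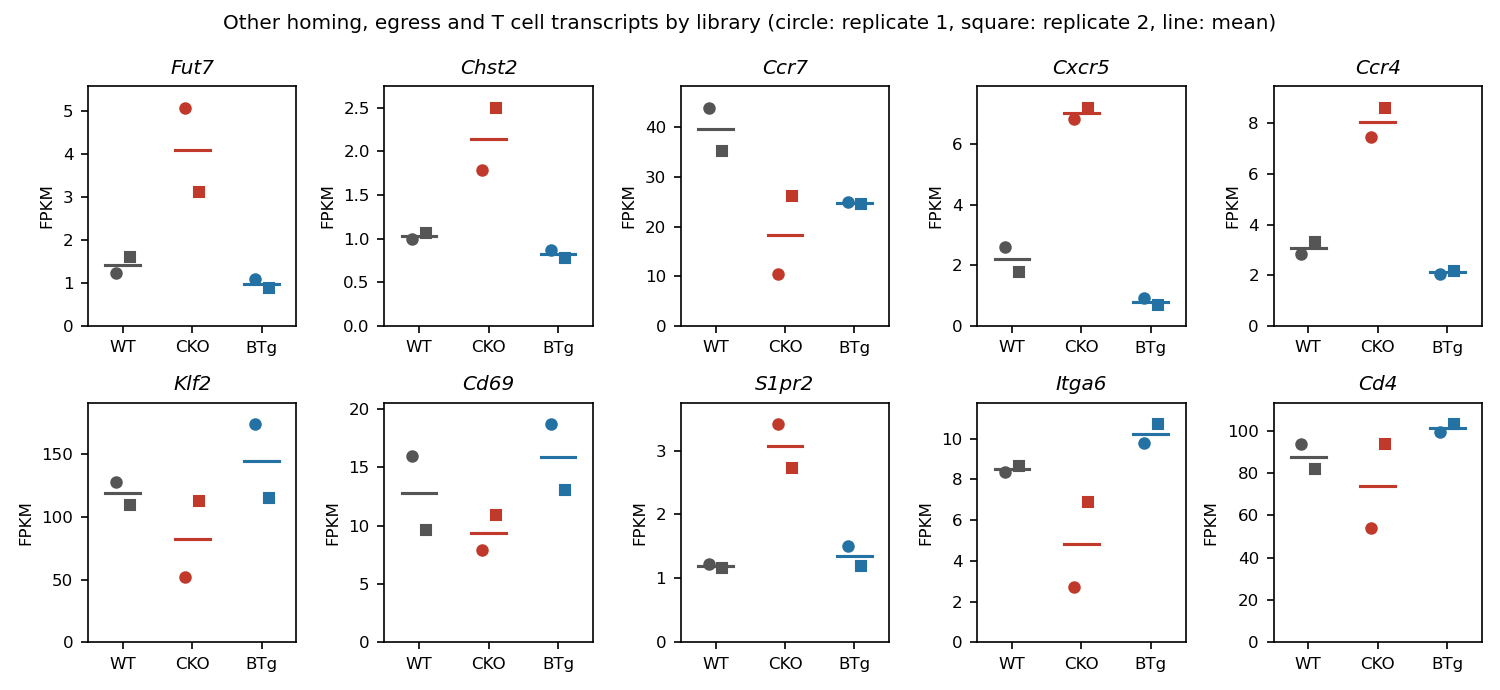
Deposited FPKM (vertical axis, starting at 0 in each panel) of other homing, egress and T cell genes in each library of WT, CKO and BTg; points are libraries and lines are group means. Fut7, Cxcr5 and S1pr2 are highest in CKO, with Cxcr5 at 6.82 and 7.19 there and at 0.914 and 0.685 in BTg.

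Other integrin genes were mostly under the filter: 7 of 21 further chains were tested with limma and 0 called. Only Itga6, higher in BTg than in CKO, had an unadjusted p under 0.05, beside 2.78% of all genes. Itga6, the alpha6 chain of laminin receptors, was at 8.36 and 8.67 FPKM in WT, 2.70 and 6.91 in CKO, and 9.77 and 10.7 in BTg, an order like that of S1pr4 and opposite to that of Itgb1, its partner. The log2 difference of BTg from CKO was 1.05 (SE 0.38, limma adjusted p = 0.514). Itga2b, which marks platelets, was at 2.39 and 4.07 in WT, 7.56 and 4.07 in CKO, and 1.94 and 3.80 in BTg.

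Of the genes for integrin activation and linkage to actin, 25 were tested and 0 called. Only Rap1b, higher in BTg than in CKO, had an unadjusted p under 0.05, beside 2.78% of all genes. In BTg 21 were higher than in WT and 4 lower, with a median log2 difference of 0.20 beside 0.02 over all genes. Against CKO 19 were higher and 6 lower, with a median of 0.29 beside 0.06. In CKO 11 were higher than in WT and 14 lower, with a median of -0.03 beside -0.03. Rasgrp2, which activates the GTPase Rap1 ahead of integrins, was at 114 and 152 FPKM in WT, 50.0 and 127 in CKO, and 155 and 233 in BTg. Rap1b was at 24.8 and 20.0 in WT, 13.9 and 17.7 in CKO, and 29.1 and 24.3 in BTg. Of the CD4 T cell markers 11 of 12 were higher in BTg than in WT, with a median of 0.21, and 0 of 12 were higher in CKO than in WT, with a median of -0.37. Their part in the integrin activation list was not tested. Among integrin ligands Icam1 was at 2.51 and 3.13 FPKM in WT, 4.13 and 5.39 in CKO, and 2.78 and 3.34 in BTg, while Icam2 was at 13.0 and 11.3, 8.34 and 9.79, and 17.4 and 15.2 in the same order.

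Tissue residency and the response to TGF-beta, a cytokine that induces Itgae, were covered by 18 tested genes, of which limma called 0. At an unadjusted p under 0.05 these included 0 for CKO against WT. For BTg against WT 1 was lower (Cxcr6), beside 0.852% of all genes, and for BTg against CKO 1 was higher (Smad7), beside 2.78%. In CKO 4 were higher than in WT and 14 lower, with a median log2 difference of -0.09 beside -0.03 for all genes. Tgfbr2, the ligand-binding receptor, was at 3.83 and 4.59 FPKM in WT, 1.79 and 4.34 in CKO, and 5.39 and 5.90 in BTg. Smad7, a feedback inhibitor of the pathway, was at 5.73 and 7.04, 1.95 and 5.57, and 8.04 and 8.44 in the same order. Both had their lowest mean in CKO and their lowest value in CKO replicate 1, while Tgfbr2 in CKO replicate 2 lay above WT replicate 1. Their relation to Itgae was not tested.

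Of 10 tested homing chemokine receptors limma called 0. In CKO 7 were higher than in WT and 3 lower, with a median log2 difference of 0.70 beside -0.03 for all genes. In BTg 1 was higher than in WT and 9 lower, with a median of -0.48 beside 0.02. Against CKO 2 were higher in BTg and 8 lower, with a median of -1.06 beside 0.06. At an unadjusted p under 0.05, 6 were higher and 1 lower in CKO than in WT, beside 3.11% and 1.09% of all genes. For BTg against WT 1 was higher and 2 lower, beside 0.769% and 0.852%. For BTg against CKO 1 was higher and 7 lower, beside 2.78% and 6.01%. Cxcr5, the follicular receptor, was at 2.61 and 1.79 FPKM in WT, 6.82 and 7.19 in CKO, and 0.914 and 0.685 in BTg. Ccr4, found on skin-homing and regulatory T cells, was at 2.84 and 3.30, 7.47 and 8.62, and 2.07 and 2.16 in the same order. Both took the order of Itgb1, with CKO replicates close to each other, and the part of the cell type sums with this order was not tested. Ccr7, which draws T cells into lymph nodes, was at 43.9 and 35.3 in WT, 10.5 and 26.2 in CKO, and 25.0 and 24.5 in BTg, below WT in both other groups.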

How the data were processed

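Total RNA was extracted with TRIzol and the NEBNext Ultra kit served for libraries, per the labels. The submitters' processing notes name Trimmomatic 0.38, HISAT2 2.1.0, featureCounts 1.6.0 and the GRCm38 build; for settings, annotation release and strand use the sources used here give nothing. The authors deposited FPKM for 28914 genes in 6 libraries, and each identifier was found in GENCODE M21. The deposited FPKM were whole reads within 0.01 in 100.0% of values when length was the median span of a gene's transcripts, introns included, and in 21.2 to 22.9% when it was exon length.

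Groups came from the titles, and replicate numbers from the brackets in them. The main test was limma 3.58.1 (R 4.3.3) on log2(FPKM + 1), with an intensity trend, no block and all 6 libraries in one fit; a gene entered if 2 libraries reached 1 FPKM, and the Benjamini-Hochberg threshold was 0.05. Fold changes of low genes are understated on this scale. An exact two-sided permutation of 2 against 2 has 0.333 as its smallest p and was not used. Genes named were the 10 members, Prdm1, Ccr7, Klf2, Cd69, Foxp3, Cd4 and S100a8; in each other list, up to 2 genes per comparison with the smallest p among those without overlap and with a higher mean of at least 2 FPKM; and the 3 genes most like Itgae, S1pr1 and Gpr183. Haspin, Cerkl, Ubac2, Cd8a, Cd8b1 and Tpst2 were added after seeing values. One gene of the naming rule is not reported here. The members and lists were chosen with earlier results of these data known. Alternatives were other pseudocounts, filters, scalings and variance models, a replicate block, exon length, limma voom on recovered reads (10 or more in 2 libraries) and leaving out each library. Scaling to CD4 T cell markers and the combined settings for Itgae were chosen after seeing the data. Having 2 libraries per group limits the precision. Figures were drawn with matplotlib 3.10.9.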

Additional observations from a re-analysis of the deposited data

How the results depend on the processing

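No member passed the threshold when a single choice of pseudocount, filter, scaling, variance model, gene length, block or left-out library was changed. Itgae kept its direction in all 3 comparisons, and so did Itgb1, under each setting run. On exon length without CKO replicate 2, a combination added later, Itgae (-2.10, limma adjusted p = 0.0371) and Itgb1 passed for BTg against CKO, with 673 of 13092 genes. Calls over all genes (0, 2 and 2 for CKO against WT, BTg against WT and BTg against CKO) became 65, 46 and 81 with no filter on low values. Leaving out single libraries gave 0 to 67 calls for CKO against WT, 0 for BTg against WT and 0 to 238 for BTg against CKO, the highest without CKO replicate 2. BTg against WT and BTg against CKO gave 0 and 0 with quantile normalization, 1 and 0 with only the groups compared, and 4 and 7 with voom; exon length gave 9 for BTg against CKO. The replicate block gave 0 calls in each. Whether numbers pair the libraries is not established: their deviations correlated at 0.173 (WT and CKO), 0.469 (WT and BTg) and 0.456 (CKO and BTg), with only 2 numbers per group.

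Members without overlap between CKO and WT numbered 5 to 10 when single libraries were left out, where a lone library cannot overlap itself; between BTg and WT the 7 became 4 with median-of-ratios scaling and 3 with CD4 marker scaling. That scaling moves the median of all genes to 0.25, -0.12 and -0.36. It reversed CKO against WT for Itgb7 (0.15) and Selplg (0.18), BTg against WT for S1pr1 (-0.08), and BTg against CKO for Itgb2 (-0.29) and Gpr183 (-0.26); quantile normalization reversed Itgb2 in CKO against WT (-0.02). Differences that changed sign when 1 library was left out were, for CKO against WT, Itgb7 (-0.59 to 0.15), Itga4 (-0.35 to 0.49), Itgal (-0.01 to 0.45), Itgb2 (-0.12 to 0.14) and Gpr183 (-0.20 to 0.21); for BTg against WT, Itga4 (-0.33 to 0.05), Itgal (-0.09 to 0.08) and S1pr1 (-0.06 to 0.27); and for BTg against CKO, Itga4 (-0.63 to 0.21) and Gpr183 (-0.01 to 0.40). The cause was not tested. With 2 libraries per group, intervals on the log2 scale reach about the size of the differences described, and depth limits Itgae most, at 78 to 752 reads.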

Other observations

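The protein-coding genes with a mean of at least 5 FPKM whose log2(FPKM + 1) followed a member most closely over the 6 libraries were listed for 3 members, as a description with no test; the points share the outlying CKO replicate 1. For Itgae, among 4128 genes, they were S100a6 (Pearson r = 0.986), a calcium-binding protein gene of activated cells, Cebpa (0.984), a myeloid transcription factor gene, and Vim (0.979), which encodes vimentin. Cebpa was at 3.21 and 4.38 FPKM in WT, 31.0 and 10.9 in CKO, and 1.87 and 1.52 in BTg. S100a6 was at 25.0 and 28.8, 194 and 72.2, and 16.1 and 14.9 in the same order. All 3 were highest in CKO replicate 1, as Itgae was and as neutrophil markers were.

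For S1pr1, among 4127 genes, the closest were Otud1 (r = 0.995), a deubiquitinase gene, Nap1l4 (0.994), a histone chaperone gene, and Zrsr1 (0.99), a splicing factor gene. Otud1 was at 15.5 and 13.4 FPKM in WT, 3.51 and 10.7 in CKO, and 17.1 and 14.8 in BTg. Its lowest library is again CKO replicate 1. For Gpr183 they were Chpf (0.985), Tmem185b (0.969) and Hes6 (0.955), all with small ranges, such as 4.91 to 6.54 FPKM for Chpf.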
